A study of Mus musculus with 8 samples.

Results

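Transcripts of 9 genes controlling mRNA storage, poly(A) tail length and translation in male germ cells were measured with and without conditional deletion of *Arid1a*. The cells were fractions enriched for pachytene spermatocytes. The genes were chosen by name for these roles, not for their values, although earlier results from these libraries were known when they were chosen. They are *Boll*, *Ybx2*, *Ddx25*, *Papolb*, *Pabpc1*, *Pabpc2*, *Paip2*, *Eif4g3* and *Cpeb2*, out of 21058 genes listed in the deposited tables, and all 9 passed the filter on low counts that 17643 genes passed. RNA was sequenced from 4 *Arid1a* WT and 4 *Arid1a* cKO samples. The *Arid1a* cKO males carried homozygous floxed *Arid1a* alleles (fl/fl) and a single copy of the *Stra8-Cre* transgene, in which the *Stra8* promoter drives Cre recombinase from spermatogonia onward. The males termed *Arid1a* WT were fl/fl or fl/+ for the floxed allele and had no Cre, so floxed alleles were present in both genotypes. The mice were adults. The floxed *Arid1a* line was on a CD1 background, and the background of the *Stra8-Cre* line is not stated. Cells from the pooled testes of several males were separated by Sta-Put sedimentation at unit gravity. Fractions that light microscopy showed to be mostly pachytene spermatocytes were pooled, so other cells could be present. The study describes excision by this Cre as inefficient, so that some cKO spermatocytes retained an intact allele. By immunofluorescence it found most, but not all, cKO pachytene spermatocytes without detectable ARID1A. The labels call the samples biological replicates, but nothing states that each came from its own purification, and p-values then measure the spread between these samples, which may be technical.

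Germ cells transcribe many genes during meiosis and in round spermatids whose proteins are needed only later, when the condensing nucleus no longer makes RNA. Those messages are packed by RNA-binding proteins, kept from translation, and released in a set order. Y-box proteins and DAZ and CPEB family proteins bind the stored messages, poly(A) polymerases and poly(A)-binding proteins set and read the tail, and the eIF4G scaffolds join the tail-bound proteins to the cap.

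Libraries summed to 18308688 to 22044507 estimated counts in *Arid1a* WT and 15850961 to 21626772 in *Arid1a* cKO, and CPM below are counts scaled to library size after TMM normalization. *Arid1a* itself, counted over the whole gene and not only the floxed exons, was at 98.8 to 128.5 CPM in *Arid1a* WT and 76.4 to 82.9 CPM in *Arid1a* cKO, a log2 fold change of -0.51 ± 0.07 (SE; edgeR's quasi-likelihood test, Benjamini-Hochberg adjusted p = 2.31e-05). Across all tested genes 74% were called changed, 36.5% higher and 37.5% lower in *Arid1a* cKO. Cell type markers moved as well. All 19 markers of round and elongating spermatids rose (median log2 fold change 2.17), with summed TPM (a unit scaled for transcript length) of 6719 to 7601 in *Arid1a* WT and 26895 to 28792 in *Arid1a* cKO. Of 12 pachytene markers 3 rose and 8 fell (median -0.39), from *Adam3* at 0.46 to *Pou5f2* at -4.37. Picked after their values were seen as the furthest moved, *Piwil1* was at 1538 to 1642 CPM in *Arid1a* WT against 105.8 to 112.5 CPM in *Arid1a* cKO, and *Pou5f2* at 113.9 to 136.8 against 5.44 to 6.57 CPM. All 9 tested Sertoli cell markers fell, with summed TPM of 619.6 to 691.8 in *Arid1a* WT and 184.2 to 192.5 in *Arid1a* cKO and *Rhox5* listed at 0 in every library, and 7 of 8 Leydig cell markers fell (82.9 to 98.1 and 9.14 to 10.9 TPM). Of 10 spermatogonial markers 9 rose and 1 fell (median 0.59), of 8 leptotene and zygotene markers 6 rose and 2 fell (median 1.28), of 9 macrophage and blood markers 7 rose and 1 fell (median 1.61, with summed TPM of 7.46 to 8.90 and 12.45 to 16.2), and of 9 peritubular and endothelial markers 5 rose and 2 fell (median 0.36). In such bulk samples fewer cells of a type and less RNA per cell cannot be told apart. The part of these marker differences in the values below was not tested.

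Of the 9 genes, 5 rose (*Paip2*, *Cpeb2*, *Papolb*, *Pabpc2* and *Eif4g3*), 1 fell (*Boll*) and 3 did not pass the test (*Ybx2*, *Ddx25* and *Pabpc1*). That is 66.7% called, against 74% of all tested genes, and the median log2 fold change was 0.21 against -0.02 over all tested genes. With at least 10 counts required in every library, which all 9 have, 11566 of 13977 genes were called, a larger share. The CPM of the genotypes did not overlap for 6 of the 9, where 68.9% of all tested genes had no overlap. The number of calls therefore did not set these genes apart, and the values of each gene are given below.

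**Figure D1:**
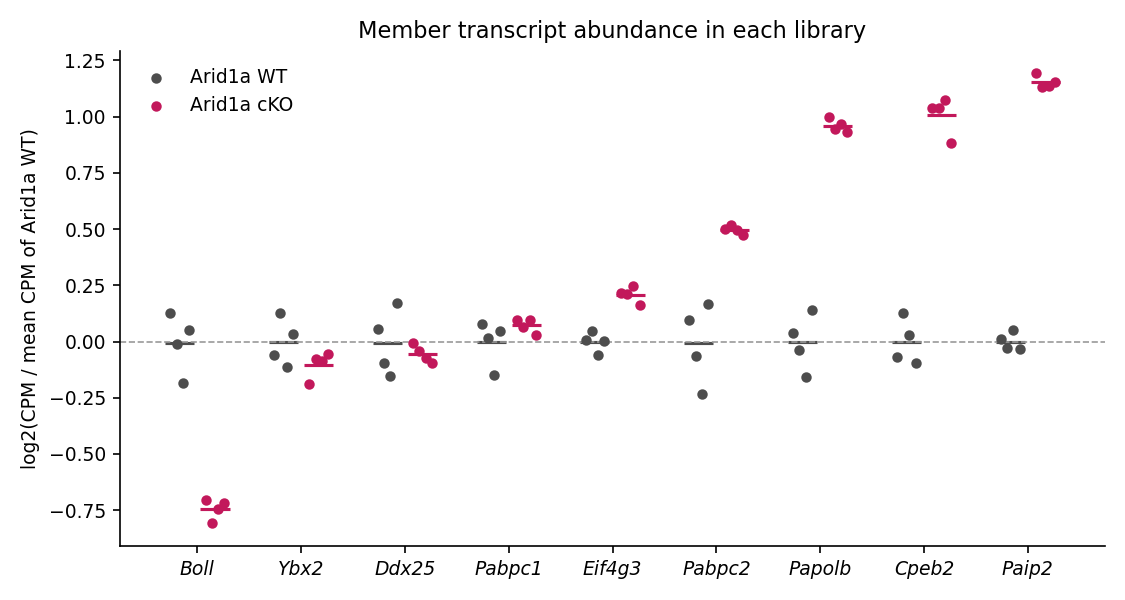
Abundance of each of the 9 genes in each library, as log2 of CPM over the mean CPM of the 4 *Arid1a* WT libraries, with points for libraries and bars for the mean log2 value of each genotype. *Paip2*, *Cpeb2* and *Papolb* sit near 1 in *Arid1a* cKO, *Boll* is the only gene whose cKO points all lie below the WT points, and *Ybx2*, *Ddx25* and *Pabpc1* overlap.

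On the TPM scale, which allows levels of different genes to be compared, *Ybx2* (2709 ± 174 TPM, SD, n = 4) and *Pabpc1* (2410 ± 122 TPM) were by far the most abundant of the 9 in *Arid1a* WT, and *Cpeb2* (111.8 ± 9.88 TPM) was the least. In that order *Paip2* (141.2 to 166.4 TPM) and *Ddx25* (132.5 to 156 TPM) were the only neighbours in *Arid1a* WT whose libraries overlapped. In *Arid1a* cKO *Ybx2* and *Pabpc1* overlapped at the top, *Paip2* (321.3 ± 1.49 TPM) and *Cpeb2* (305.9 ± 21.3 TPM) overlapped each other and stood above *Boll* (242 ± 3.29 TPM), and *Ddx25* (123.8 ± 2.56 TPM) was lowest. *Boll* moved from the fourth to the seventh place, and *Cpeb2* from the ninth to the sixth. The TPM of the listed genes sum to 78.07 to 81.14% of an *Arid1a* WT library and 88.09 to 88.64% of an *Arid1a* cKO library. Genotypes are therefore compared below mainly on CPM, and comparisons on TPM, such as the family shares, are named as such.

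*Boll* encodes the boule-like member of the DAZ family of RNA-binding proteins, which bind messages and promote their translation in meiotic and haploid germ cells. It lies on chr1:55243566-55363789 on the minus strand. Its CPM were 284.3, 258.6, 229.5 and 269.5 in the *Arid1a* WT libraries and 160, 148.8, 155.5 and 158.2 in the *Arid1a* cKO libraries. Every cKO library was below every WT library, and *Boll* fell to 0.597 of the WT level (260.5 ± 23.2 to 155.6 ± 4.92 CPM; log2 fold change -0.74 ± 0.06, SE; edgeR adjusted p = 5.50e-08). The other family member measured, *Dazl*, which acts earlier in the germ line, rose from 106.4 ± 4.56 to 182.5 ± 6.2 CPM (log2 fold change 0.78 ± 0.05, adjusted p = 1.99e-09). The pair moved in opposite directions, also without TMM scaling (-0.84 and 0.68) and with length offsets (-0.58 and 0.72). *Boll* made up 84.29 to 87.32% of the summed TPM of the pair in *Arid1a* WT and 71.42 to 72.35% in *Arid1a* cKO, without overlap (difference -14.4 percentage points, p = 0.0286 in a two-sided exact permutation test, the smallest value that 4 against 4 libraries allow). The family shares of the 9 genes were tested in this way and their p-values are given unadjusted. Under the planned adjustment over the 9 shares, none of these TPM shares would pass 0.05.

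*Boll* transcripts start at more than 1 place. Windows before 2 of its RefSeq starts were examined. The 250 bases before the downstream of these, chr1:55362729-55362978 (GRCm38.p6, minus strand), hold 1 CCAAT box. Of 32851 mouse promoter windows of that length 33.8% hold the letters CCAAT on either strand. The window is shown because it precedes 1 of the 2 starts examined and *Boll* was the only gene of the 9 that fell. The transcript mixture of *Boll* is described below. Capitals mark the CCAAT letters.
Boll: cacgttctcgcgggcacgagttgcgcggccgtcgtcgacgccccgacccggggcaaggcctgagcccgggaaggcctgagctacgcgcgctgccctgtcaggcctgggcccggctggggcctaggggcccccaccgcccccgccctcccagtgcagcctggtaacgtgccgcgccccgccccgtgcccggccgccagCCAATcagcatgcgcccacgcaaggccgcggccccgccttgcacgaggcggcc
The window before the upstream of these RefSeq starts, chr1:55363754-55364003, holds no CCAAT and a single AACNG (the MYB core motif, found in 74.2% of windows). It overlaps the end of the gene span given above, and the bases checked after this start lay in no GENCODE transcript. Neither window holds TGACG, the half-site of the cAMP response element, found in 17.8%.

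*Ybx2* encodes MSY2, the germ cell Y-box protein that coats stored messages. It lies on chr11:69935805-69941604. CPM were 2159, 2453, 2080 and 2300 in *Arid1a* WT and 1972, 2127, 2117 and 2164 in *Arid1a* cKO. The ranges overlapped, and the log2 fold change of -0.10 ± 0.06 did not pass the test (edgeR adjusted p = 0.147). Its value followed the scaling: without TMM scaling it was -0.20 and was called (adjusted p = 0.00326), and without *Arid1a* WT replicate 3 it was -0.14 and was called (adjusted p = 0.024). The more widely expressed Y-box genes *Ybx1* (1364 ± 130 to 1359 ± 39.6 CPM) and *Ybx3* (2128 ± 141 to 2033 ± 48.8 CPM) were not called either. *Ybx2* held 41.08 ± 1.62% of the TPM of the 3 genes in *Arid1a* WT and 40.42 ± 1.82% in *Arid1a* cKO (exact permutation test, p = 0.629). The Y-box family was the only family of which no measured gene was called with TMM scaling, while *Ybx2* and *Ybx3* were called lower without it or without *Arid1a* WT replicate 3. On log2(TPM + 1) all 3 genes were called lower by limma, *Ybx2* at -0.23 (adjusted p = 0.00688) and *Ybx1* and *Ybx3* at -0.19 each (adjusted p = 0.00529 and 0.00184), and their TPM did not overlap between genotypes.

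*Ddx25* encodes the gonadotropin-regulated testicular RNA helicase, a DEAD-box protein that takes part in export and translation of spermatid messages. It lies on chr9:35541848-35558470. CPM were 695.2, 625.9, 601.4 and 752.3 in *Arid1a* WT and 666.4, 649.9, 636.3 and 625.2 in *Arid1a* cKO. The WT libraries spread more widely than the cKO libraries and enclosed them (log2 fold change -0.05 ± 0.07, edgeR adjusted p = 0.482). Leaving out *Arid1a* WT replicate 4 turned the sign to 0.02, and leaving out TMM scaling gave a called value of -0.15 (adjusted p = 0.0111). Its near relatives *Ddx19b* and *Ddx19a* encode helicases of the nuclear pore that strip export factors from mRNA. *Ddx19b* fell from 347.2 ± 15.4 to 125.5 ± 3.55 CPM (log2 fold change -1.47 ± 0.05, adjusted p = 1.83e-12), and with length offsets the log2 fold change was -0.96. *Ddx19a* stayed low at 15.4 to 18.4 CPM in *Arid1a* WT and 16.6 to 22.4 CPM in *Arid1a* cKO. Other genes hold 32% of its 31-base words, and its call (log2 fold change 0.23 ± 0.09, adjusted p = 0.0288) was lost without TMM scaling (adjusted p = 0.224) and with 4 of the 8 libraries left out singly, *Arid1a* WT replicates 1 and 2 and *Arid1a* cKO replicates 1 and 2 (adjusted p 0.0595 to 0.112). *Ddx25* accounted for 55.29 to 62.64% of the TPM of the 3 helicases in *Arid1a* WT and 69.09 to 70.44% in *Arid1a* cKO (exact permutation test, p = 0.0286). Its own CPM overlapped, but on the TPM scale of the share *Ddx25* was at 132.5 to 156 in *Arid1a* WT and 120.5 to 126.2 in *Arid1a* cKO, and limma on log2(TPM + 1) called it lower (-0.19, adjusted p = 0.00753).

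*Cpeb2* encodes a cytoplasmic polyadenylation element binding protein, which can hold a message silent or direct the lengthening of its tail. It lies on chr5:43225349-43289724. CPM were 283.7, 324.7, 303.7 and 278.9 in *Arid1a* WT and 611.3, 611.4, 626.6 and 549.2 in *Arid1a* cKO. The groups were far apart, and *Cpeb2* rose 2.01-fold (297.8 ± 20.9 to 599.6 ± 34.4 CPM; log2 fold change 1.01 ± 0.06, edgeR adjusted p = 1.43e-09). On the TPM scale the means were 111.8 ± 9.88 and 305.9 ± 21.3, a wider gap than on the count scale, and with offsets for transcript length the log2 fold change was 1.55. *Cpeb3* rose from 20.55 ± 1.22 to 60.11 ± 5.32 CPM (log2 fold change 1.55 ± 0.07, adjusted p = 6.32e-11). *Cpeb1*, the founding member that drives cytoplasmic polyadenylation in oocytes, rose from 7.53 ± 0.924 to 13.65 ± 0.326 CPM (log2 fold change 0.86 ± 0.09, adjusted p = 7.10e-07). *Cpeb4* stood at 77.3 to 96.5 CPM and 86.8 to 95 CPM and was not called on counts (log2 fold change 0.08, adjusted p = 0.281), turned to -0.02 without TMM scaling, and was called at 0.42 with length offsets (adjusted p = 1.77e-04). The summed TPM of the 4 CPEB genes was 142.6 to 170.6 in *Arid1a* WT and 353.1 to 412.3 in *Arid1a* cKO, and *Cpeb2* held 69.54 to 73.53% of it in *Arid1a* WT and 78.36 to 80.21% in *Arid1a* cKO (exact permutation test, p = 0.0286).

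**Figure D2:**
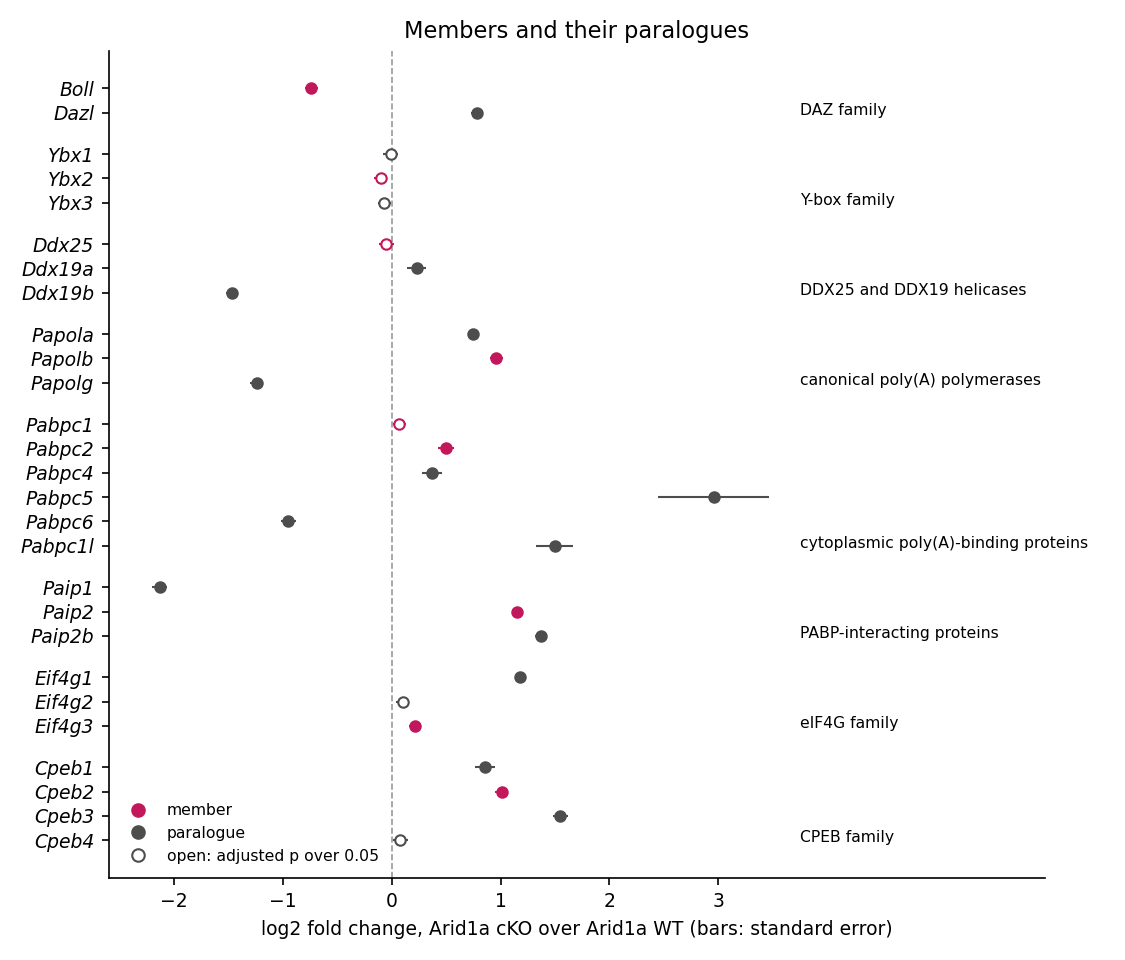
Log2 fold change of each of the 9 genes (magenta) and its paralogues (grey), grouped by family, with bars for the standard error and open points for adjusted p over 0.05. *Pabpc4l*, near 0 CPM in every library, is left out. *Boll* and *Dazl* lie on opposite sides of 0, as do *Paip1* on one side and *Paip2* and *Paip2b* on the other.

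*Papolb* encodes TPAP, the poly(A) polymerase of spermatogenic cells, which extends tails in the cytoplasm. It is a gene without introns at chr5:142527740-142530076 on the minus strand. CPM were 671.5, 636.5, 586.8 and 719.8 in *Arid1a* WT and 1307, 1257, 1278 and 1247 in *Arid1a* cKO. All cKO libraries lay above all WT libraries, and the abundance rose 1.95-fold (653.7 ± 56.1 to 1272 ± 26.5 CPM; log2 fold change 0.96 ± 0.06, edgeR adjusted p = 2.76e-09). *Papola*, the general nuclear polymerase, rose from 131.1 ± 8.38 to 220.6 ± 5.36 CPM (log2 fold change 0.75 ± 0.05, adjusted p = 7.79e-09), and *Papolg*, another nuclear polymerase, fell from 50.25 ± 3.76 to 21.35 ± 0.689 CPM (log2 fold change -1.24 ± 0.06, adjusted p = 2.31e-10). *Papolb* held 68.11 to 71.67% of the TPM of the 3 genes in *Arid1a* WT and 70.92 to 72.29% in *Arid1a* cKO. That share overlapped between genotypes (exact permutation test, p = 0.0857), and only as a share of counts did the test reach its smallest p (difference 5.79 percentage points, exact permutation test, p = 0.0286). The 250 bases before the *Papolb* start, chr5:142530077-142530326 (GRCm38.p6, minus strand), lie outside any annotated exon of the gene and are shown because *Papolb* was among the genes that rose most and has a single start. They hold 1 CCAAT and 2 matches to AACNG, 1 of them on the other strand, and capitals mark these 3 matches.
Papolb: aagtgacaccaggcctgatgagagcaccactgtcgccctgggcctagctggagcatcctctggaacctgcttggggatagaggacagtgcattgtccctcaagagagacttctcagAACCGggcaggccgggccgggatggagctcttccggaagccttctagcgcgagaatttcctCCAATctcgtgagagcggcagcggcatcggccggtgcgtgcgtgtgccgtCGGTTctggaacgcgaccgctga
CCAAT stands in 33.8% of such windows and AACNG in 74.2%, so the letters in this window are common ones, and it holds no TGACG.

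*Pabpc1* encodes the main cytoplasmic poly(A)-binding protein, which coats tails and binds eIF4G. It lies on chr15:36595658-36609581. CPM were 3824, 3662, 3271 and 3745 in *Arid1a* WT and 3876, 3796, 3872 and 3701 in *Arid1a* cKO. The ranges overlapped (log2 fold change 0.07 ± 0.06, edgeR adjusted p = 0.284), and the sign turned to -0.03 without TMM scaling, again not called. Of its 31-base words 16.1% also occur in other genes, 8.69% in *Gm16580*, so reads may be shared with such copies.

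*Pabpc2*, on chromosome 18, is an intronless copy expressed in the testis. CPM were 942, 844.1, 750.7 and 990.2 in *Arid1a* WT and 1247, 1261, 1244 and 1225 in *Arid1a* cKO. The cKO libraries lay above all WT libraries within a narrow range, and the abundance rose 1.41-fold (881.7 ± 106 to 1244 ± 14.6 CPM; log2 fold change 0.50 ± 0.07, edgeR adjusted p = 2.64e-05). *Pabpc6*, the other abundant intronless copy measured, fell instead, from 983.8 ± 120 to 509.8 ± 12.9 CPM (log2 fold change -0.95 ± 0.07, adjusted p = 2.93e-08). On the TPM scale *Pabpc2* had means of 521.8 and 669.6 and *Pabpc6* of 461 and 217.1 in *Arid1a* WT and *Arid1a* cKO. The remaining measured relatives were scarce, all at or under 9.06 CPM. *Pabpc4* rose from a mean of 6.56 to 8.48 CPM and *Pabpc1l* from 1.06 to 3.01 CPM, the former with 63.3% of its 31-base words found elsewhere in the transcriptome and a call that was lost on log2(TPM + 1) (adjusted p = 0.0939). X-linked *Pabpc5* rose too, with 0 to 0.182 CPM in *Arid1a* WT and 0.514 to 0.861 CPM in *Arid1a* cKO, a handful of reads a library, and *Pabpc4l*, at 0.182 CPM or less, was not called. As a share of the TPM of the 7 measured genes, *Pabpc1* was at 70.95 ± 0.98% in *Arid1a* WT and 71.78 ± 0.58% in *Arid1a* cKO, with overlap (exact permutation test, p = 0.171). By counts its share differed by 2.33 percentage points (exact permutation test, p = 0.0286). *Pabpc2* held 14.91 to 15.96% in *Arid1a* WT and 20.62 to 21.64% in *Arid1a* cKO, without overlap (exact permutation test, p = 0.0286).

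*Paip2*, on chromosome 18, encodes PABP-interacting protein 2, which displaces poly(A)-binding protein from the tail and from eIF4G and so represses translation. CPM were 81.3, 79, 83.5 and 78.7 in *Arid1a* WT and 184.3, 176.7, 177.4 and 179.4 in *Arid1a* cKO. Replicates were tight in both genotypes, and the 2.23-fold rise (80.61 ± 2.22 to 179.4 ± 3.43 CPM; log2 fold change 1.15 ± 0.04, edgeR adjusted p = 7.81e-12) was the largest of the 9 genes on counts, while with length offsets *Cpeb2* (1.55) was above *Paip2* (1.20), and on log2(TPM + 1) likewise (1.45 and 1.10). *Paip2b*, a repressor of the same kind, rose from 26.4 ± 1.07 to 68.21 ± 2.22 CPM (log2 fold change 1.37 ± 0.05, adjusted p = 6.52e-12). *Paip1*, which binds the same protein but stimulates translation, fell from 111.3 ± 9.07 to 25.37 ± 1.56 CPM (log2 fold change -2.13 ± 0.07, adjusted p = 1.16e-12). The signs of all 3 held without TMM scaling and on TPM. On the per-length TPM scale *Paip1* had a mean of 114.8 in *Arid1a* WT against 150 for *Paip2*, and 23.9 against 321.3 in *Arid1a* cKO. The share of the TPM of the 3 genes held by *Paip2* was 51.2 to 57.37% in *Arid1a* WT and 81.44 to 82.46% in *Arid1a* cKO, a difference of 28.6 percentage points that was the widest of the 9 (exact permutation test, p = 0.0286).

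The genes whose pattern over the 8 libraries was most like that of *Paip2*, the gene of the 9 with the largest change on counts, were *Plekhh2*, *Fam91a1* and *Klhl28*. Their root mean square differences from *Paip2*, on log2 CPM centred on each gene's mean, were 0.0313, 0.0314 and 0.0353 among 12996 genes compared. They lie on chromosomes 17, 15 and 12, and their log2 fold changes were 1.14, 1.17 and 1.17.

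*Eif4g3* encodes a scaffold of the cap-binding complex that male germ cells need to leave meiotic prophase. It lies on chr4:137991779-138207086. CPM were 657.3, 675.4, 628.5 and 656.4 in *Arid1a* WT and 760.1, 756.9, 775.5 and 732.2 in *Arid1a* cKO. The groups did not overlap, and the rise was the smallest called among the 9, 1.16-fold (654.4 ± 19.3 to 756.2 ± 17.9 CPM; log2 fold change 0.21 ± 0.05, edgeR adjusted p = 0.00101). On TPM the libraries overlapped (194.9 to 213.1 and 211.3 to 228.6), and limma on log2(TPM + 1) did not call it (log2 difference 0.10, adjusted p = 0.0621). *Eif4g1*, the general scaffold, rose more, from 162.4 ± 10.3 to 369 ± 7.77 CPM (log2 fold change 1.18 ± 0.05, adjusted p = 4.19e-11). *Eif4g2*, which lacks the part that joins the cap-binding protein, was not called (log2 fold change 0.10, adjusted p = 0.127), but on log2(TPM + 1) it was called lower at -0.17 (adjusted p = 0.00163), and it was called higher without *Arid1a* WT replicate 4 (0.15, adjusted p = 0.0195) or with at least 10 counts required in every library (0.14, adjusted p = 0.0306). *Eif4g3* held 31.92 to 33.07% of family TPM in *Arid1a* WT and 32.5 to 33.35% in *Arid1a* cKO (exact permutation test, p = 0.0857). By counts the share moved the other way, by -2.27 percentage points (exact permutation test, p = 0.0286).

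**Figure D3:**
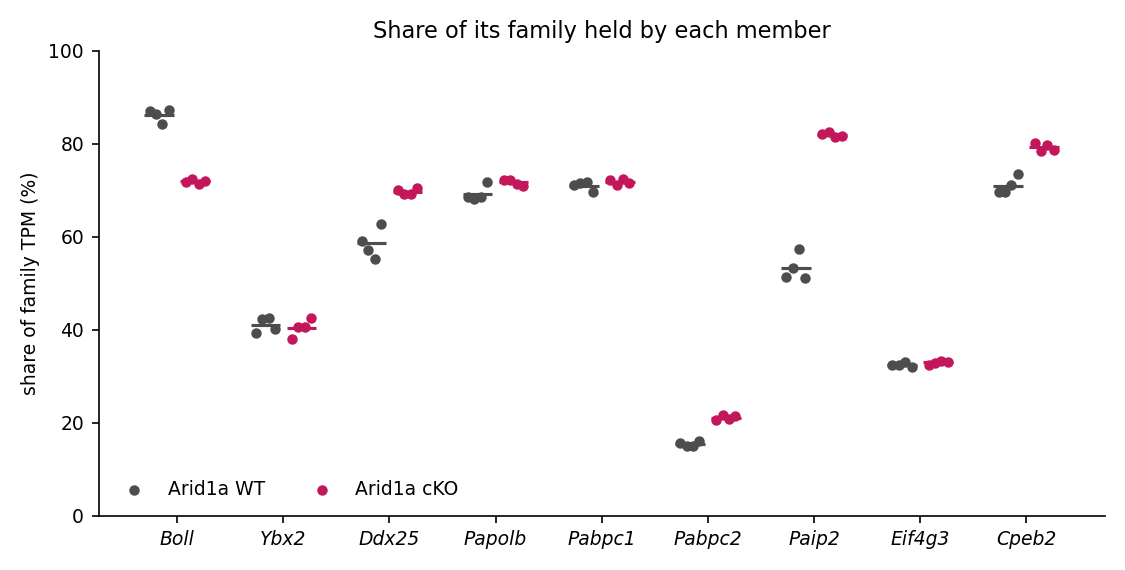
Share of the summed TPM of its family held by each of the 9 genes in each library (percent, axis from 0 to 100), with points for libraries and bars for means. The cKO points of *Paip2*, *Ddx25*, *Cpeb2* and *Pabpc2* lie above and those of *Boll* below all WT points, and the other 4 shares overlap.

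Of the 19 paralogues with counts, 10 rose, 4 fell and 5 were not called, 73.7% called against 74% of all tested genes. In the DAZ family, the DDX25 and DDX19 helicases, the poly(A) polymerases, the poly(A)-binding proteins and the PABP-interacting proteins genes were called in both directions. Among the helicases the only gene called higher was *Ddx19a*, whose call was lost without TMM scaling and with length offsets.

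Counts and TPM of the same gene differ by the length of the transcripts it used, so count divided by TPM, relative to the WT mean, follows the mixture of long and short transcripts. Each library was centred on its median gene. Of 13958 genes with enough counts 50.8% were called by limma. However, 1429 genes with a single GENCODE M21 transcript, in which no mixture can change under that annotation, also moved. Their median was 0.06 and their central 95% range 0.04 to 0.07 log2 units. The study names the UCSC known gene annotation for mm10, in which some of these genes may have more than 1 transcript. *Ddx25*, *Papolb* and *Pabpc2*, each with 1 annotated transcript, moved by 0.07. Shifts within that range were therefore not read as a change of transcripts. Percent changes in length below are relative to the median gene and are not corrected for the 0.06. Measured from the single-transcript genes, shortenings would be larger and lengthenings smaller. The adjusted p-values test against a shift of 0, not against that range. *Cpeb2* and *Boll* lay furthest below it among the 9.

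*Cpeb2* counts per TPM, relative to the WT mean, were 1.031, 1.063, 0.977 and 0.934 in *Arid1a* WT and 0.689, 0.716, 0.684 and 0.703 in *Arid1a* cKO. All cKO libraries were far below all WT libraries, a change in length of -30.2% (log2 shift -0.52 ± 0.042, SE; limma adjusted p = 1.62e-04), and 2.55% of the measured genes moved at least as far down. GENCODE M21 lists 7 *Cpeb2* transcripts, with protein-coding ones of 837, 6327, 6846 and 7050 bases. The gene-level values do not say which of them changed. The exons overlap those of *Gm7854* on the opposite strand over 1.75% of their bases, and the counting is not stated to use strand.

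*Boll* was at 0.999, 1.013, 1.000 and 0.989 in *Arid1a* WT and 0.912, 0.888, 0.907 and 0.920 in *Arid1a* cKO. The change in length of -9.34% (log2 shift -0.14 ± 0.013, limma adjusted p = 1.62e-04) was smaller than that of *Cpeb2*, and 13.6% of measured genes moved at least as far down. Its 4 protein-coding transcripts run from 658 to 2635 bases. *Pabpc1*, with 10 transcripts, moved up by 0.08, just above the single-transcript range, and *Ybx2*, at 0.05 ± 0.025, lay within it. *Eif4g3* (0.03 ± 0.02) and *Paip2* (-0.02 ± 0.016) lay below it, although neither differed from 0 by the test (adjusted p = 0.235 and 0.286). Their distance from the single-transcript genes was not tested.

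Among the paralogues called by limma with a shift outside the single-transcript range, the length of the transcripts used changed by -28.7% for *Ddx19b* (log2 shift -0.49), -19.8% for *Cpeb4* (-0.32), -15.5% for *Papola* (-0.24) and -13.7% for *Paip2b* (-0.21, with overlap between genotypes), and by 15.2% for *Eif4g2* (0.20). For *Cpeb4* the shift accompanies a call made with length offsets and not on counts. *Eif4g2* was not called with length offsets (-0.08, edgeR adjusted p = 0.16) and was called lower only on the TPM scales. The remaining shifts were smaller, -0.07 for *Cpeb3*, 0.11 for *Ybx1* and *Ddx19a*, 0.09 for *Eif4g1* and 0.08 for *Dazl*.

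**Figure D4:**
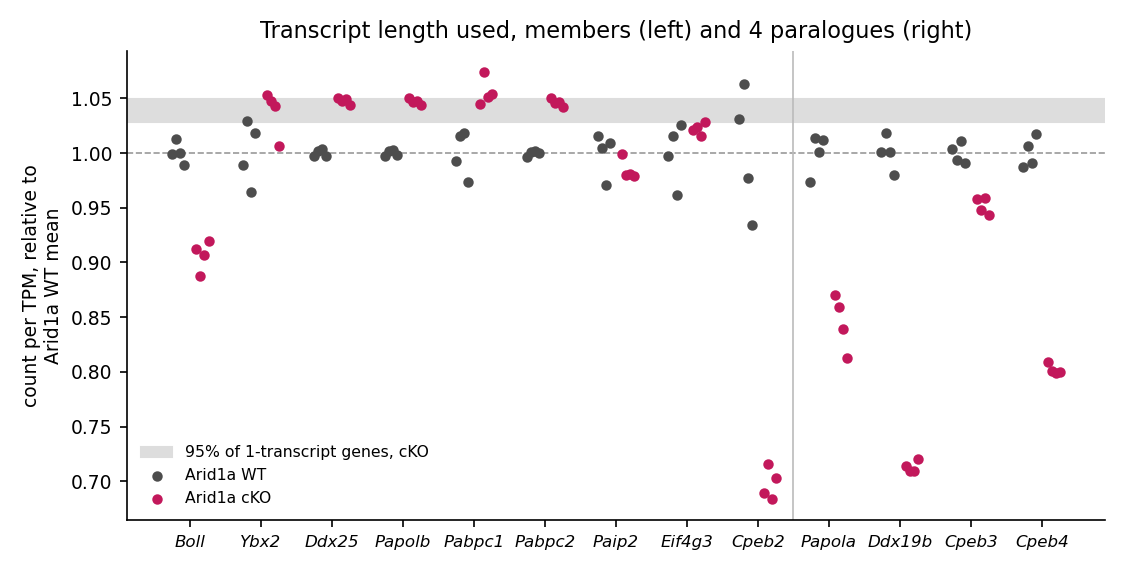
Count per TPM relative to the *Arid1a* WT mean in each library, for the 9 genes and 4 paralogues. The grey band holds 95% of genes with 1 transcript in *Arid1a* cKO. *Cpeb2* and *Ddx19b* lie near 0.7 in *Arid1a* cKO, and *Ddx25*, *Papolb* and *Pabpc2* lie within the band.

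Lists of other genes of the same pathways were compared in the same fit. In it 36.5% of all tested genes were called higher and 37.5% lower, 74% in all, with a median log2 fold change of -0.02. With at least 10 counts required in every library the share called was larger, 11566 of 13977 genes. Among 52 tested genes of mRNA repression and storage, 19 rose and 25 fell (84.6% called, median log2 fold change -0.00). *Samd4*, the mouse Smaug repressor, rose from 90.4 ± 4 to 384.2 ± 17.3 CPM (log2 fold change 2.09), *Elavl2* from 3.99 ± 0.354 to 14.5 ± 0.529 CPM (1.86) and *Zfp36l1*, which recruits deadenylases, from 11.8 ± 1.05 to 42.3 ± 1.22 CPM (1.85). The decapping scaffold *Edc4* (294.4 ± 8.32 to 88.5 ± 1.25 CPM; -1.73), the stress granule protein gene *G3bp1* (-1.61) and *Tial1* (-1.52) fell. The list held genes that rose and genes that fell in similar numbers.

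The 29 tested genes of cleavage and polyadenylation split into 15 that rose and 10 that fell (86.2% called, median 0.26). X-linked *Tent5d*, of the noncanonical poly(A) polymerases, rose 7.09-fold (14.97 ± 1.17 to 106.2 ± 6.13 CPM) and *Cpsf4l* 5.36-fold (9.06 ± 0.666 to 48.5 ± 0.634 CPM). The X-linked cleavage stimulation factor gene *Cstf2* rose from 21.7 ± 1.08 to 100.3 ± 2.2 CPM (log2 fold change 2.21), and its autosomal intronless copy *Cstf2t* fell from 85.8 ± 6.17 to 29.9 ± 0.858 CPM (-1.52). On the TPM scale *Cstf2t* was the higher of the pair in *Arid1a* WT and *Cstf2* in *Arid1a* cKO (30.3 and 16.8 TPM, then 9.58 and 78.7 TPM). *Cpsf4* (-1.22) and *Cstf3* (-1.18), which encode further subunits, also fell.

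Of 21 genes of cap binding and the eIF4F complex, 6 rose and 12 fell (85.7% called, median -0.16), and with any 1 library left out 9 to 11 fell. *Eif4ebp1*, a repressor that binds the cap-binding protein eIF4E, rose from 5.05 ± 0.227 to 10.9 ± 1.03 CPM (1.11), and *Eif4ebp2*, of the same family, fell from 79.9 ± 8.27 to 37.1 ± 2.08 CPM (-1.11). *Eif4b* (0.36) and *Rptor* (0.33) rose, the latter not called without TMM scaling (adjusted p = 0.0567). The helicase gene *Eif4a2* fell from 225.5 ± 9.25 to 75.2 ± 4.29 CPM (-1.58), and the kinase gene *Mknk1* fell as well (-0.94).

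Of 24 deadenylases and their partners 15 fell and 7 rose (91.7% called, median -0.34). *Cnot8* (17.8 ± 0.866 to 5.9 ± 0.206 CPM; -1.59), *Pan2* (-1.28) and *Cnot9* (-0.85) fell. *Parn* (1.18), *Btg1* (1.10) and *Btg4* (0.97) rose. In mRNA nuclear export, 16 of 22 genes fell and 5 rose (95.5% called, median -0.69). *Ddx39a* (157.2 ± 2.23 to 45.3 ± 0.865 CPM; -1.79) and *Ddx39b* (-1.38), the helicases of the export complex, fell, as did X-linked *Nxf3* (-1.37). X-linked *Nxt2* (1.69) and *Nxf2* (1.64) rose, with *Nupl2* (1.41).

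Of 16 genes listed as stored spermatid messages 15 rose, and the median log2 fold change of the list was 2.08. Whether each of them is stored in these cells was not tested. *Akap4*, X-linked, rose from 283.1 ± 23.3 to 1471 ± 73.3 CPM (2.38), *Akap3* from 240.1 ± 18.4 to 1239 ± 61.8 CPM (2.37), both of the sperm tail, and *Tnp1*, which encodes a transition protein, from 257.7 ± 18.2 to 1210 ± 64.8 CPM (2.23). The exception, *Ldhc*, overlapped between genotypes (3271 to 4246 and 3153 to 3489 CPM), and its call (-0.19, adjusted p = 0.0421) was lost with DESeq2, with the stricter count filters, and without *Arid1a* WT replicate 1 or 4 or *Arid1a* cKO replicate 2, 3 or 4, while its TPM did not overlap (4355 to 5273 in *Arid1a* WT and 3652 to 3949 in *Arid1a* cKO), and the count of 1 gene called lower held on log2(TPM + 1) and without TMM scaling. This list shares 7 of its 16 genes with the 19 spermatid markers (43.8% and 36.8%), so its rise and that of the markers above are in part the same values. The largest rise among the 9 regulators on counts, 1.15 for *Paip2*, and that of *Cpeb2* with length offsets, 1.55, were below the count-based median of this list.

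**Figure D5:**
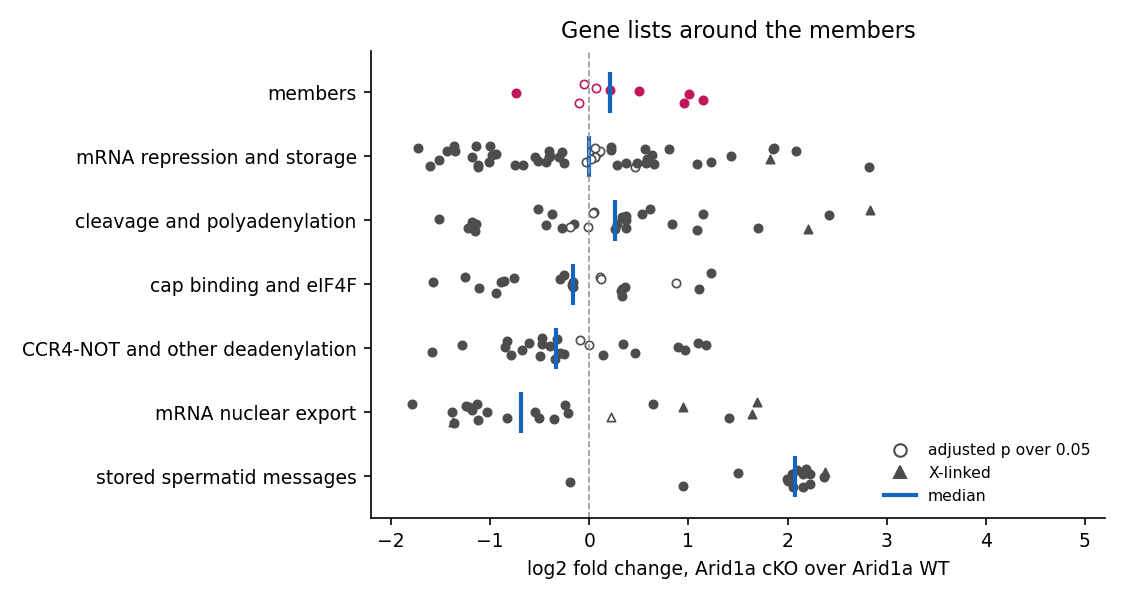
Log2 fold change of the 9 genes and of the tested genes of 6 lists around them, with blue bars for medians, triangles for X-linked genes and open points for adjusted p over 0.05 (vertical spread within a list is only for legibility). The stored messages cluster near 2, and the other lists spread on both sides of 0 with medians from -0.69 to 0.26.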

How the data were processed

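RNA was measured by mRNA sequencing in 4 *Arid1a* WT and 4 *Arid1a* cKO samples enriched for pachytene spermatocytes, grouped by the genotype in their titles. The authors quantified reads on mm10 transcripts with Salmon, summed transcripts to Entrez genes with tximport and deposited estimated counts per gene, not scaled for depth or length. The authors also deposited TPM, scaled over the whole library. Their table of differential expression, which holds their own DESeq2 comparison, was not used. Symbols and coordinates came from RefSeq GRCm38.p6 (21036 of 21058 genes matched), transcripts from GENCODE M21, and promoter windows from RefSeq on the same build.

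Estimated counts were rounded. The 17643 genes that reached a sum of 10 counts across libraries entered edgeR 4.0.16 in R 4.3.3, with TMM factors, genotype as the only term, glmQLFit and glmQLFTest. Calls required p of 0.05 or less after Benjamini-Hochberg adjustment over these genes. The common biological coefficient of variation was 0.0709. Transcript length was log2(count / TPM), centred on the median of each library, in limma 3.58.1 for genes with at least 10 counts in every library. Family shares of TPM were compared with a two-sided permutation test, exact because all 70 ways to label 4 of 8 libraries as cKO were taken. Benjamini-Hochberg adjustment over the 9 shares had been planned, but the p-values are given unadjusted. After that adjustment no share of TPM would pass 0.05. The procedures were tested on simulated data in which few genes changed, as many up as down. The simulated lengths had no shift common to all genes. The simulations therefore do not cover TMM scaling when most genes change, as here, or a common length shift.

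Genes named were the 9 members, *Arid1a*, every paralogue, and up to 3 called genes a direction from each list with the largest change, an average log2 CPM of at least 1 and no overlap between genotypes. For the member with the largest change on counts, the 3 genes closest over the 8 libraries were also named. The members and lists were chosen with earlier results of these data known. *Piwil1*, *Pou5f2*, *Rhox5* and *Ldhc* were named after their values were seen. Some of the listed genes had no counts under the symbols used. The alternatives were DESeq2 1.42.0, DESeq2 size factors, no TMM, other count filters, length offsets, limma on log2(TPM + 1) and log2(TPM + 0.1), the replicate number as a block, and each library left out in turn. Tables were made in Python 3.11.15 with pandas 2.3.3, scipy 1.17.1 and matplotlib 3.10.9.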

Additional observations from a re-analysis of the deposited data

Results flagged for a closer look

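Values of each of the 9 genes were examined for a library standing apart from the other 3 of its genotype by Dixon's test at the 95% level, which divides the gap to the nearest library by the range. Of 56 groups examined 2 stood out, where chance gives 2.8, since about 1 in 20 groups is marked by chance. The *Papolb* share of polymerase TPM was 71.7% in *Arid1a* WT replicate 4 and 68.1 to 68.6% in the other *Arid1a* WT libraries (ratio 0.848). *Paip2* count per TPM was 0.999 of the WT mean in *Arid1a* cKO replicate 1 and 0.979 to 0.981 in the other *Arid1a* cKO libraries (ratio 0.926).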

How the results depend on the processing

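The calls and directions of *Boll*, *Papolb*, *Pabpc2*, *Paip2* and *Cpeb2* were the same under every alternative run. Without TMM scaling the log2 fold changes of all genes shifted by -0.10, with 5879 called higher and 7216 lower against 6435 and 6613, *Ybx2* (-0.20) and *Ddx25* (-0.15) were called and *Pabpc1* (-0.03) and *Cpeb4* (-0.02) changed sign. On log2(TPM + 1) and log2(TPM + 0.1) *Ybx2* was -0.23 and *Ddx25* -0.19, both called, *Pabpc1* -0.08, *Eif4g3* 0.10 and not called, and *Eif4g2* -0.17, and *Eif4g2* was -0.08 with length offsets. *Ybx1*, at -0.01, became 0.02 with DESeq2, DESeq2 size factors or filterByExpr and 0.03 with at least 10 counts in every library, but was -0.19 and called on either TPM scale. With a library left out, *Ybx1* ranged from -0.07 to 0.06, *Ybx2* from -0.14 (called, without *Arid1a* WT replicate 3) to -0.06, and *Ddx25* from -0.1 to 0.02. The 1 stored message called lower became 0 with DESeq2, DESeq2 size factors, either stricter filter, the block, and 5 of the 8 libraries left out singly (range 0 to 1). By counts the family share rose by 5.79 percentage points for *Papolb* and 2.33 for *Pabpc1* (exact permutation p = 0.0286 for each) and changed sign for *Eif4g3* (-2.27). The *Ybx2* share difference was 0.13 without *Arid1a* cKO replicate 1, in a range of -1.35 to 0.13 with a library left out. The *Paip2* length shift was called without *Arid1a* WT replicate 3 (-0.04; range -0.04 to -0.01). With a library left out the smallest share p is 0.0571, so such fits cannot pass the threshold. With all libraries the shares of TPM pass it only unadjusted, not after the planned adjustment over the shares.

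Same-numbered samples share only a number: correlations of their deviations were -0.0917 to 0.202, and 4 of 8 libraries correlated best with their own number. With the replicate block 13100 genes were called against 13048, 6 members in each case, and *Boll* was at -0.74. Depth limits *Pabpc4l* and *Pabpc5*, at a few reads per library.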
